A study of Mus musculus with 2 samples.

Results

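The genes described here are 9 complement components and receptors of the mouse, C1qa, C1qb, C1qc, C3, C4b, Cfb, Cfp, C3ar1 and C5ar1, chosen by name out of the 43346 genes of the deposited tables. All 9 had counts and were tested. Complement is a cascade of plasma and cell-derived proteins that tags microbes, immune complexes and dying cells. C1q, assembled from chains A, B and C, opens the classical pathway and leads to cleavage of C4 and C3. Factor B and properdin belong to the alternative pathway, which amplifies C3 cleavage, and the released fragments C3a and C5a act on G-protein-coupled receptors of myeloid cells. Most plasma complement comes from the liver, whereas C1q comes mainly from macrophages, and the spleen is rich in macrophages that filter blood.

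The samples were spleen tissue of adult C57BL/6J mice, 8 weeks old and with no treatment named in the labels, drawn from littermates of both sexes with the sex of each sample not recorded. RNA over 200 nucleotides was depleted of ribosomal RNA, selected for poly(A) and sequenced from both ends with the strand kept. The 2 samples, called library 1 and library 2, are biological replicates of 1 group and carry the same donor identifier. The labels do not say which animals went into each, so the distance between these samples may be technical. SDs describe that distance, and p-values ask only whether it exceeds counting error. There was no second condition, and the comparisons below are between genes, between transcripts and between the 2 libraries. Values given in pairs are in the order library 1, library 2.

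Library 1 held 49686344 gene counts and library 2 held 51393345. The spleen identity genes Tlx1 and Nkx2-5 were both detected in both libraries, and both were lower in library 2, with log2 ratios of -0.33 and -0.645. Markers of another organ were abundant too: 6 pancreatic acinar genes summed to 74910 and 57710 TPM (transcript abundance brought to a fixed total), so the levels below are shares of a pool that includes this RNA. In scaled counts, all 10 red pulp macrophage markers passed as higher in library 2 by the test described below, with a median log2 ratio of 0.64. So did all 3 marginal zone macrophage markers, at a median of 1.35. Of all genes tested, 24.1% passed as higher and 26.6% as lower. The red pulp markers summed to 654.4 and 922.9 TPM, but Csf1r among them did not rise in TPM, at 125.24 and 124.32. The part of these macrophages in the differences of the complement genes was not tested. In whole tissue, fewer cells of a type and less RNA per cell cannot be told apart.

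Levels are the authors' TPM, which corrects for transcript length, so that genes can be set against each other. The 9 genes spanned from 403.2 TPM for C1qc to 0.35 TPM for C3ar1 and together made up 0.128% and 0.126% of all TPM. The order by mean level was C1qc, C1qb, C1qa, Cfp, C3, C4b, Cfb, C5ar1 and C3ar1. It was the same in both libraries, and for each pair of neighbours the lower value of the higher gene exceeded the higher value of the lower gene. In relative terms the narrowest step was between C1qa, lowest at 192.75 TPM, and Cfp, highest at 173.52 TPM. With 2 values per gene, an exact two-sided permutation test cannot give a p below 0.333, so the order is a description.

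**Figure D1:**
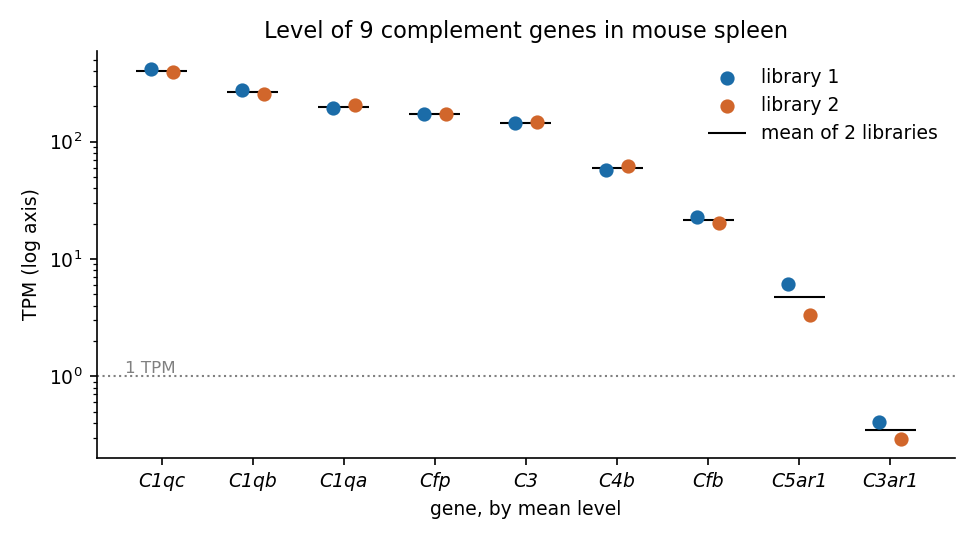
TPM (log axis) of each of the 9 genes, ordered by mean level, with 1 point for each library and a line at the mean of 2 libraries. The points of C1qc, C1qb, C1qa, Cfp and C3 lie at 143.75 TPM or more, those of C5ar1 lie apart at 6.14 and 3.33 TPM, and those of C3ar1 lie under the dotted line at 1 TPM.

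Differences between the libraries were tested on expected counts, as described under data processing, with a two-sided exact binomial test that asks only whether these 2 libraries differ beyond counting error. Of the 9 genes, 6 (66.7%) passed at an adjusted p of 0.05, beside 50.7% of the 17547 genes tested. In library 2, 5 of the genes were higher, beside 24.1% of all tested, and 1 was lower, beside 26.6%. Only C5ar1 differed by more than 1.5-fold, which 18.5% of all genes did. The median absolute log2 ratio was 0.138 for the 9 genes and 0.246 for all genes tested, and the median signed log2 ratio was 0.06 against 0.01. At these depths, a difference of a few percent passed the test for the abundant genes, so a pass says little about size.

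**Figure D2:**
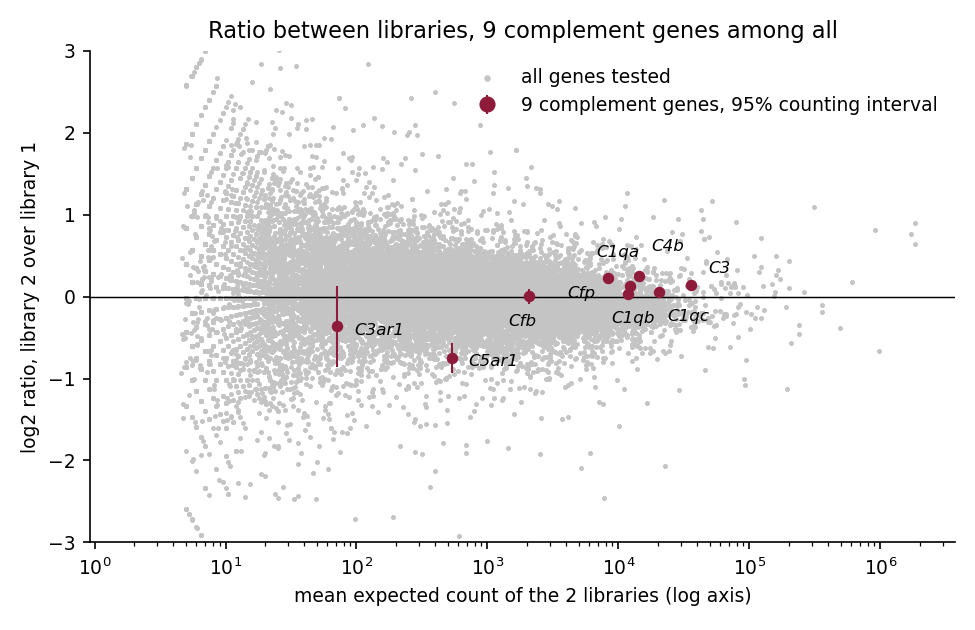
Log2 ratio of scaled expected counts, library 2 over library 1, against the mean expected count (log axis), for all genes tested (grey) and the 9 complement genes (red, bars are 95% exact counting intervals). The 7 component genes lie close to 0, between 0.00 and 0.25, while C5ar1 lies at -0.75. The 103 genes with an absolute log2 ratio beyond 3 are not drawn.

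The 3 chains of C1q were the most abundant of the 9 genes and held 68.7% of their summed TPM in library 1 and 67.8% in library 2. The genes stand side by side on the minus strand of chromosome 4 (GRCm38), in a stretch of 18675 bases: C1qb (ENSMUSG00000036905) at chr4:136880129-136886187, C1qc (ENSMUSG00000036896) at chr4:136889804-136893065 and C1qa (ENSMUSG00000036887) at chr4:136895917-136898803. C1qc, the C chain, measured 413.68 and 392.78 TPM (403.2 ± 14.8 TPM, SD, n = 2) and ranked 181 among the 11572 protein-coding genes detected at 1 TPM or more in both libraries. C1qb, the B chain, stood at 273.8 and 255.19 TPM (264.5 ± 13.2 TPM, SD, n = 2), rank 284. C1qa, the A chain, stood at 192.75 and 204.22 TPM (198.5 ± 8.11 TPM, SD, n = 2), rank 402. The chains were thus stepped and not equal, although the protein takes up equal numbers of each.

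Within a library, the C chain had 2.15 times the TPM of the A chain in library 1 and 1.92 times in library 2. The B chain had 1.42 and 1.25 times the TPM of the A chain. The ratio of C to B was the steadiest, at 1.51 and 1.54. No 76-base window of the C1qb transcript, 76 bases being the read length, occurs in a transcript of C1qa or C1qc, so no read of full length can match C1qb and another chain alike.

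The chains also differed in how they compared between the libraries. The A chain had 7675 counts in library 1 and 9078 in library 2, a fold of 1.17 (counting interval 1.13 to 1.20, adjusted p = 1.61e-22, exact binomial test). The C chain had 19707 and 20823 counts, a fold of 1.04 (interval 1.02 to 1.06, adjusted p = 7.86e-05, exact binomial test). The B chain had 11535 and 11990 counts, a fold of 1.03 (interval 1.00 to 1.05), and did not pass (adjusted p = 0.0872, exact binomial test). The call on the C chain depended on scaling: with plain library totals its adjusted p was 0.0619 (exact binomial test), and on the TPM scale its log2 ratio was -0.07. Over all detected genes the log2 TPM ratio was lower than the log2 count ratio by a median of 0.125, written as a shift of -0.125, so the TPM ratio of the C chain still lay above that shift. Among the red pulp macrophage markers, Cd5l stood at 24.52 and 50.4 TPM and Hmox1 at 224.54 and 391.12 TPM. Csf1r, the receptor that macrophages need for survival, stood at 125.24 and 124.32 TPM, with a log2 count ratio of 0.11. The log2 count ratios of Cd5l and Hmox1, at 1.17 and 0.97, were the largest of the 10 red pulp markers, whose median was 0.64. Those of Cd68 and Axl were 0.36 and 0.31, and that of Csf1r was the smallest. The A, B and C chains stood at 0.22, 0.04 and 0.06. The part of macrophage content in these ratios was not tested.

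By level over the 2 libraries, the protein-coding genes nearest to C1qb were Ppp2r3d (261.87 and 249.0 TPM), Tcirg1 (267.71 and 241.78 TPM) and Ddx39b (290.48 and 255.69 TPM). Their distances on log2(TPM + 1) were 0.073, 0.084 and 0.085, and 5 genes lay within 0.1. With only 2 libraries, this likeness is one of level and of a single ratio.

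RefSeq promoter entries (GRCm38.p6) were at hand for C1qb and C1qc. They are shown because these neighbouring genes had the highest levels, and because both hold the core GAGGAA, or its reverse complement TTCCTC, that ETS-family factors such as the macrophage regulator PU.1 are known to bind. Both stretches are on the minus strand, written 5′ to 3′, with the motif in capitals. They are the 250 bases at chr4:136886201-136886450 for C1qb, where 24 bases lie between the motif and the RefSeq start, and the 99 bases at chr4:136893066-136893164 for C1qc, which end just before the GENCODE start and where 187 bases lie between the motif and the RefSeq start.
C1qb: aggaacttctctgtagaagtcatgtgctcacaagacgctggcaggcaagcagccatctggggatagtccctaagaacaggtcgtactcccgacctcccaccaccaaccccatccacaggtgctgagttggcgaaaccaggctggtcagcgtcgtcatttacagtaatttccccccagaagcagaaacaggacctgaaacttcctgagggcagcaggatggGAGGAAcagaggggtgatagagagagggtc
C1qc: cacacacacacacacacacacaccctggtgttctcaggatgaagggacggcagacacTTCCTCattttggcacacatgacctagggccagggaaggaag
The motif was chosen with these sequences in view. Searched on both strands in the 250 bases before the start, it was found in 2 of the 6 complement genes with an entry and in 23.3% of all 32851 promoter entries, so a match is common. Such a match is a description of letters and not of binding.

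C3 and C4b encode the proteins that attach covalently to a target surface once cleaved. C3 (ENSMUSG00000024164), on the minus strand at chr17:57203970-57228136, measured 143.75 and 145.83 TPM (144.8 ± 1.47 TPM, SD, n = 2), rank 572. In TPM the libraries were close, with the smallest relative spread of the 9 genes, an SD of 1.02% of the mean. In scaled counts C3 was not the closest. Its log2 ratio of 0.138 was the median absolute value of the 9 genes, and that of Cfb was 0.001. C4b (ENSMUSG00000073418), at chr17:34728380-34743882 on the minus strand, stood at 57.03 and 61.89 TPM (59.46 ± 3.44 TPM, SD, n = 2), rank 1606. C3 thus had 2.52 times the TPM of C4b in library 1 and 2.36 times in library 2.

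C3 had the most counts of the 9 genes, 34076 in library 1 and 37995 in library 2. In counts it exceeded C1qc by 1.73 and 1.82 times, but per transcript length C1qc exceeded C3 by 2.88 and 2.69 times, since the C3 transcript is much longer. Between the libraries C3 differed by a fold of 1.10 (interval 1.08 to 1.12, adjusted p = 1.21e-36, exact binomial test). C4b had 13017 and 15649 counts and a fold of 1.19 (interval 1.16 to 1.21, adjusted p = 4.72e-46, exact binomial test), the largest upward fold of the 9 genes. The protein-coding genes nearest to C3 by level were Fxyd5, Vsir and Idh3g, at distances of 0.051, 0.056 and 0.069, and 10 genes lay within 0.1.

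Since the liver is the main source of plasma C3 and C4, liver markers were read beside them. Albumin (Alb) stood at 0.99 and 1.1 TPM and the fibrinogen chain Fgb at 0.02 and 0.01 TPM, and 1 of 7 liver markers reached 1 TPM in both libraries. The 7 summed to 14.91 and 4.98 TPM, while C3 alone was near 145 TPM in both. The antitrypsin gene Serpina1a, at 10.67 and 0.58 TPM, made up most of that sum in library 1 and was the only one of the 6 tested to pass, as lower in library 2. The part of liver RNA in the level of C3 was not tested.

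Counts of C4b have to be read with those of C4a, its near-identical neighbour on chromosome 17. Aligned, the main C4b transcript and the longest C4a transcript with counts were identical at 96.1% of 5367 bases, and 23.2% of the 5304 windows of read length in the C4b transcript also occur in a C4a transcript. Where both reads of a pair fall in such windows, the pair can only be divided by estimation, so both values carry some uncertainty. The share of such pairs was not measured. The stretch in which the copies differ most is shown to make plain what separates them: 120 coding bases of exon 21 of 41 of C4b-201, at chr17:34735430-34735549 on the minus strand (GENCODE M21, GRCm38), with the aligned bases of C4a-207. The 19 positions that differ are in capitals in both.
C4b: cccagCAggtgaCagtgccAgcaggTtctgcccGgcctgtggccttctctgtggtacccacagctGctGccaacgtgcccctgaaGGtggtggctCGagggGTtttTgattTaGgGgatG
C4a: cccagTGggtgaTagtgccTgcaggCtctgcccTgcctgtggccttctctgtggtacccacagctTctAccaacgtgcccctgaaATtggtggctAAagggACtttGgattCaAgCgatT
C4a was assigned 138 counts in library 1 and 100 in library 2, which is 1.05% and 0.635% of the counts of both copies. In TPM, C4b exceeded C4a by 15.8 times in library 1 and 45.5 times in library 2. Nearly all assigned C4 reads thus fell to C4b, and summing the copies gave a log2 ratio of 0.24 in place of 0.25.

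Cfb and Cfp are the alternative pathway genes among the 9. Properdin, the product of Cfp, stabilises the C3 convertase and so promotes the cascade. Cfp (ENSMUSG00000001128), at chrX:20925454-20931555 on the minus strand, measured 170.6 and 173.52 TPM (172.1 ± 2.07 TPM, SD, n = 2), rank 470. Factor B, the product of Cfb, supplies the protease of that convertase. Cfb (ENSMUSG00000090231), at chr17:34856374-34862518 on the minus strand, stood at 22.69 and 20.38 TPM (21.54 ± 1.63 TPM, SD, n = 2), rank 4003. Properdin transcripts exceeded those of factor B by 7.52 times in library 1 and 8.51 times in library 2.

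Cfp had 11536 and 12817 counts and a fold of 1.10 (interval 1.07 to 1.12, adjusted p = 4.1e-12, exact binomial test). Cfb had 2061 and 2090 counts and a fold of 1.00 (interval 0.942 to 1.06, adjusted p = 1.0, exact binomial test), the smallest difference of the 9 genes. Its counting interval excludes a difference of 1.5-fold between these libraries. C2, the classical counterpart of factor B and its neighbour on chromosome 17, stood at 14.42 and 14.24 TPM with 1587 and 1615 counts, so Cfb had 1.57 and 1.43 times its level. A read-through gene of C2 and Cfb, Gm20547, overlaps both and shares 81.2% of the read-length windows of the transcript Cfb-202. It was assigned 0 counts in library 1 and 5 in library 2, and the authors' intervals for its TPM reached up to 0.104 and 0.158. How reads were divided among these 3 genes rests on the authors' estimation.

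The receptors were far less abundant than the components. C5ar1 (ENSMUSG00000049130), the receptor for C5a on neutrophils, monocytes and macrophages, lies at chr7:16246743-16259540 on the minus strand. It measured 6.14 and 3.33 TPM (4.735 ± 1.99 TPM, SD, n = 2), rank 8413, with an SD of 42.0% of the mean. It had 670 and 404 counts and was 1.68-fold lower in library 2 (interval 1.48 to 1.91, adjusted p = 6.26e-16, exact binomial test). Of all genes tested, 87.4% had a smaller absolute log2 ratio. C5ar1 was the only one of the 9 to pass as lower in library 2.

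C3ar1 (ENSMUSG00000040552), the receptor for C3a, lies at chr6:122847138-122856161 on the minus strand. It measured 0.41 and 0.29 TPM (0.35 ± 0.0849 TPM, SD, n = 2) and was the one gene of the 9 under 1 TPM. Its 80 and 63 counts gave a log2 ratio of -0.35 that did not pass (adjusted p = 0.237, exact binomial test), and its fold interval of 0.55 to 1.10 includes the fold of 0.595 of C5ar1. C5ar1 exceeded C3ar1 by 15.0 times in TPM in library 1 and 11.5 times in library 2.

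The second C5a receptor, C5ar2, which binds C5a without the usual G-protein coupling, lies next to C5ar1 on chromosome 7. It stood at 3.59 and 1.62 TPM, with 557 and 278 counts, and was 2.03-fold lower in library 2 (interval 1.75 to 2.35, adjusted p = 3.85e-22, exact binomial test). C5ar1 shares no read-length window with C5ar2. C5ar1 had 1.71 times the TPM of C5ar2 in library 1 and 2.06 times in library 2. Of 7 neutrophil markers, 4 were higher and 3 lower in library 2, beside 24.1% and 26.6% of all genes tested. Their summed levels were 361.8 and 298.1 TPM. The lower ones were Elane at 60.69 and 32.45 TPM, Mpo at 25.91 and 19.85 TPM and Camp at 128.28 and 71.4 TPM. The higher ones were S100a8 at 39.91 and 41.48 TPM, S100a9 at 48.77 and 58.31 TPM, Ngp at 52.71 and 68.85 TPM and Ltf at 5.54 and 5.8 TPM. Genes of granule proteins were thus found in both directions. Of 5 monocyte markers, 2 were higher and 1 lower, beside the same shares of all genes. The part of these cells in the C5ar1 difference was not tested.

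Transcript tables give the percent of a gene's TPM that each transcript holds. The 9 genes have 24 listed transcripts, of which 19 had counts, and in 7 of the 9 genes a single transcript held over 90% in both libraries. C1qa, C1qb and C3ar1 have 1 listed transcript each, and C3 had counts in only 1 of its 4. C1qc-201 held 99.78% and 99.72%, and Cfp-201 held 98.5% and 96.88%. C4b-201 held 90.8% and 91.61%, and a short transcript with a retained intron, C4b-203, held 7.67% and 7.52%. In counts that short transcript was minor, since C4b-201 had 98.99% of the counts of C4b as a mean of the 2 libraries. The leading transcripts of C1qc, Cfp and C4b thus differed by under 2 percentage points between the libraries. The minor transcript Cfp-202 held 1.5% and 3.12%, at 2.57 and 5.41 TPM, and the authors' intervals for its TPM, 1.658 to 3.759 and 4.109 to 6.922, did not overlap.

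In Cfb and C5ar1 no transcript held over 90% in both libraries. The leading transcript of Cfb, Cfb-206, held 64.28% in library 1 and 50.11% in library 2, at 14.59 and 10.21 TPM, and the authors' interval for its TPM, from 13.57 to 15.35 in library 1, did not overlap that of 9.08 to 11.14 in library 2. Cfb-208, the next by mean share, was steady at 17.47% and 17.16%. Cfb-202 held 2.7% and 26.38%, at 0.61 and 5.38 TPM, and Cfb-201 held 9.96% in library 1 and was listed at 0 in library 2. The authors' intervals of Cfb-202 overlapped between the libraries, reaching up to 2.612 TPM in library 1 and down to 2.282 TPM in library 2. Cfb-202 and Cfb-201 share 99.5% of the windows of Cfb-202, and Cfb-206 shares 96.9% of its windows with Cfb-202. Few windows tell these transcripts apart, and their shares are given as the authors estimated them.

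C5ar1-201 held all of the TPM of C5ar1 in library 1 and 68.34% in library 2, and C5ar1-202 was listed at 0 in library 1 and held 31.66% in library 2. The 2 transcripts share 98.8% of the windows of C5ar1-201, of which 28 windows are its own, against 87 windows of C5ar1-202. The authors' interval for C5ar1-202 reached 1.005 TPM in library 1 and ran from 0.334 to 2.746 TPM in library 2, so the intervals overlapped. By the authors' posterior mean, C5ar1-202 held 5.99% in library 1 and 46.6% in library 2. In library 2 the estimates of its share thus lay apart, at 31.66% and 46.6%, while the counts of the whole gene do not depend on that division.

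**Figure D3:**
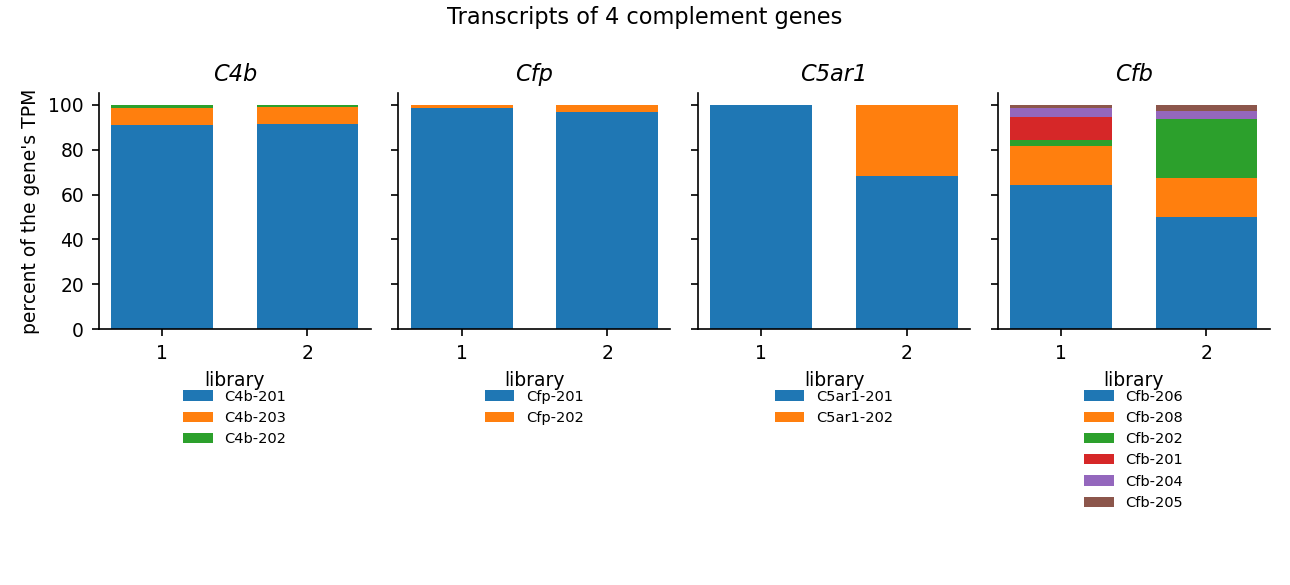
Percent of the gene's TPM held by each transcript in library 1 and library 2, for the 4 genes in which a second transcript held over 1% of TPM in both libraries or in library 2. The leading transcripts of C4b and Cfp hold over 90% in both libraries, whereas C5ar1-202 appears only in library 2, at 31.66%, and Cfb-202 goes from 2.7% to 26.38%.

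The other genes of the pathway give the setting of these 9. Of a list of 53 complement genes, the 9 included, 31 were detected at 1 TPM or more in both libraries. Among the 44 others, 23 were detected and 30 had enough counts to be tested, of which 9 were higher and 10 lower in library 2, 19 of 30 against the 50.7% of all genes. Their median log2 ratio was 0.05, close to the 0.01 of all genes tested. Detection was uneven between roles, as the plot of pathway levels by role shows.

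Of 10 classical pathway genes with C4 and C2, 8 were detected. Beyond the 9 genes, the highest was C1s1, the protease that cleaves C4 and C2, at 26.14 and 34.35 TPM, and the lowest was C1rb, with 0 and 4 counts. Of 8 lectin pathway genes, 2 were detected. The highest was Fcna, a ficolin of macrophages, at 64.16 and 108.18 TPM and 1.86-fold higher in library 2 (interval 1.78 to 1.93, adjusted p = 7.92e-204, exact binomial test), and Mbl1 and Colec10 had 0 counts in both libraries, where a count of 0 allows up to 3 counts. All 4 genes of C3 and the alternative pathway were detected. The remaining one, Cfd, encodes factor D, the protease that cleaves factor B, and is also known as adipsin of fat cells. It stood at 41.98 and 94.72 TPM, 2.49-fold higher in library 2 (interval 2.35 to 2.65, adjusted p = 5.12e-207, exact binomial test), beside Adipoq, a defining gene of fat cells, at 2.66 and 5.25 TPM and 5 adipose markers summing to 12.63 and 21.03 TPM. Adipoq had the largest log2 ratio of the 5 adipose markers. Of these, 4 passed as higher in library 2, beside 24.1% of all genes tested. Lep, at 0.33 and 0.2 TPM, had a log2 ratio of -0.57 and did not pass. The part of fat cells in the level of Cfd was not tested. The folds of Cfb, Cfp and C3 were 1.00, 1.10 and 1.10.

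The terminal genes, which form the membrane pore, were low, and 2 of 7 were detected. C6 was the highest, at 5.52 and 5.84 TPM. C8b and C9 had 0 counts in both libraries, and Hc, which encodes C5, had 1 count in library 1 and 0 in library 2. The receptor for C5a was thus measured in a tissue with almost no counts of the C5 gene itself.

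Of 8 soluble regulators, 3 were detected. The highest was Clu, or clusterin, at 798.1 and 572.41 TPM and 1.28-fold lower in library 2 (interval 1.27 to 1.30, past the threshold of the exact binomial test), above every one of the 9 genes. Of 6 membrane regulators, 4 were detected. The highest was Cd55, which speeds the decay of convertases, at 36.31 and 34.3 TPM, and the lowest was its paralog Cd55b, which had 0 counts and was not detected. Of 10 receptors, 8 were detected, and of the 9 tested, 2 were higher and 5 lower in library 2, where 24.1% of all genes tested were higher and 26.6% lower. With so few genes, nothing is read from these counts. The highest was Itgb2, the shared beta chain of the integrin receptors for cleaved C3, at 157.47 and 137.94 TPM, which did not pass (log2 ratio 0.00, adjusted p = 1.0, exact binomial test). The lowest was Vsig4, a receptor for C3 fragments on tissue macrophages such as those of the liver, with 5 and 2 counts.

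**Figure D4:**
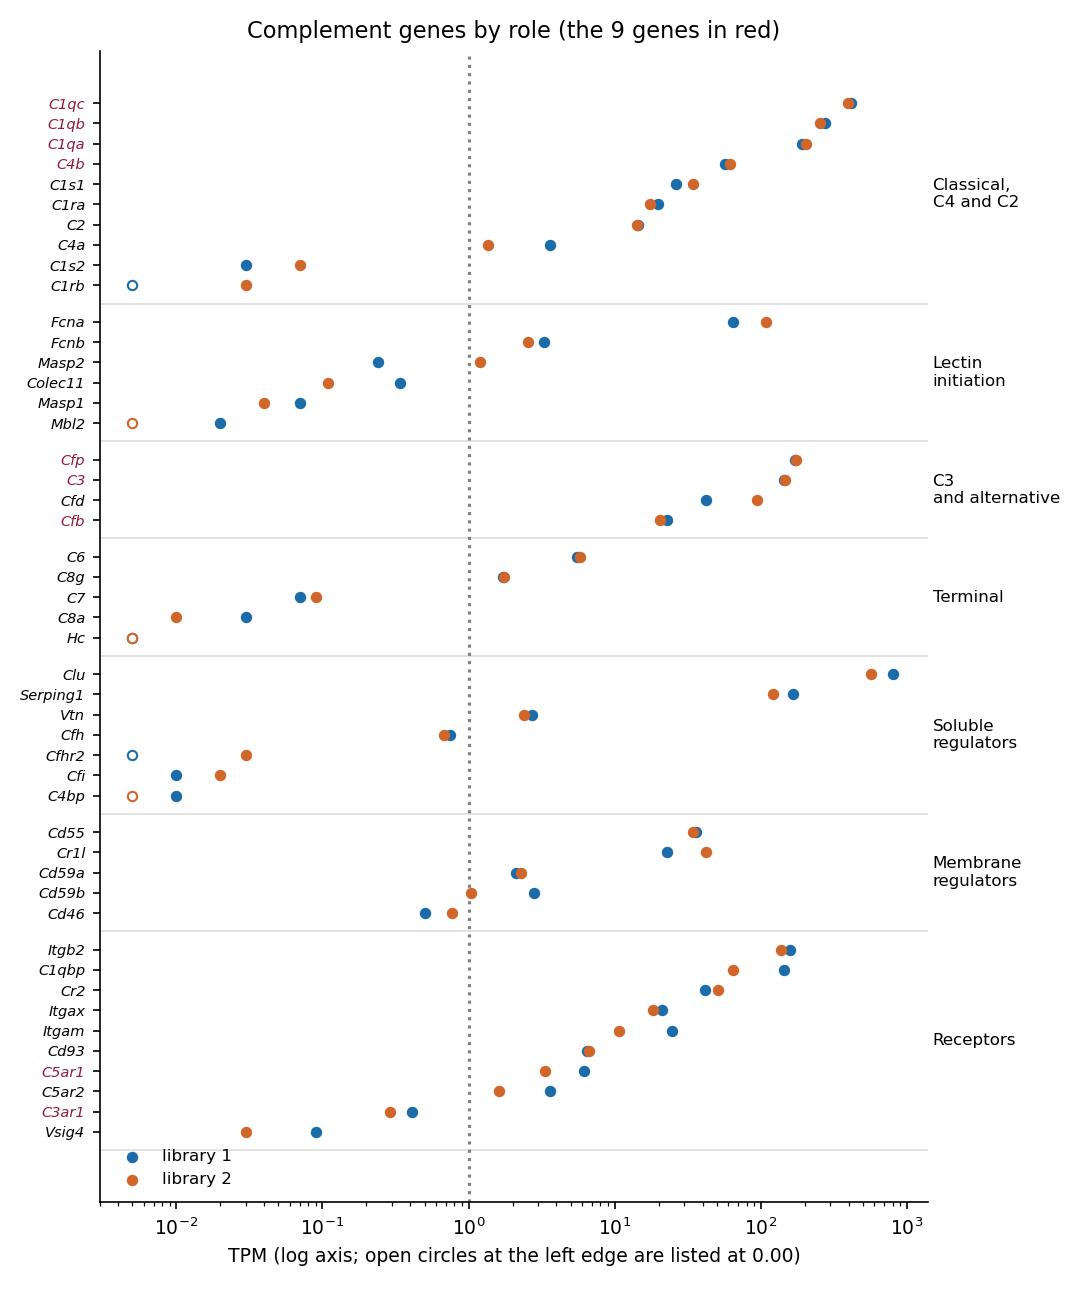
TPM (log axis) of the listed complement genes by role, without the 6 that had 0 counts in both libraries, with 1 point for each library, the 9 genes in red lettering, open circles for values listed at 0 and a dotted line at 1 TPM. The C1q chains and C4b lead the classical genes and Cfp and C3 lead the alternative ones, with Cfb the lowest of its role at 21.54 TPM, while the terminal genes other than C6 and C8g lie under 1 TPM and C3ar1 lies near the bottom of the receptors.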

How the data were processed

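The expression of 9 complement genes was read from the gene and transcript tables of 2 poly(A) RNA-seq libraries of mouse spleen. Per the deposited notes, reads were aligned to transcripts of mm10 with GENCODE M4, and each table holds 1 replicate. For aligner, quantifier and strand setting, names were not given in the sources used here. Expected counts, as deposited, are estimates of reads without normalization. The deposited TPM values and posterior mean TPM values are scaled to a fixed total that also takes in spike-ins. The deposited interval bounds of TPM are a signal with no stated confidence level. Each transcript's share of the TPM of its gene is a deposited percent. Reads that fit several genes or transcripts were divided by the authors' estimation.

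Expected counts were rounded. Spike-ins, 0.67% and 1.24% of counts, and 26272 further entries at 0 were left out. Library sizes were scaled by TMM in edgeR 4.0.16 (R 4.3.3), with factors of 1.01 and 0.9896. With 1 group of 2 samples there is no contrast for edgeR's quasi-likelihood test, so counts were compared by a two-sided exact binomial test, Benjamini-Hochberg adjusted over the 17547 genes with 10 or more counts in total, at a threshold of 0.05. It was tested on simulated data with counting error alone, which leave out the further spread between these libraries. edgeR's common dispersion over 15860 genes gave a spread between the libraries, beyond counting error, of 0.186 as a coefficient of variation. Log2 ratios use a prior count of 2 and folds none. Counting intervals are 95% exact (Clopper-Pearson) and cover counting error only. Symbols and positions come from GENCODE M21 (GRCm38) by unversioned identifier, which matched 42462 genes (98.0%). Promoters come from RefSeq (GRCm38.p6), and transcripts were compared and aligned with Biopython 1.88. Junction and contig lists on mm9 were not used here.

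The 9 genes, the pathway and marker lists and the motif were chosen with earlier results of these data known. Beyond the 9 genes, the text names the pathway genes of highest and lowest mean TPM in each role, paralogs and neighbours that could share reads (C4a, C2, Gm20547, C5ar2), and for C1qb and C3 the 3 nearest protein-coding genes by Euclidean distance of log2(TPM + 1). Marker genes named beside a result, and Itgam under other observations, were picked from their lists after their values were seen. One result of this rule is not reported here.

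Alternatives were DESeq2 1.42.0 size factors, plain library totals, TPM ratios, no prior count, minimum counts of 0 and 50, posterior mean TPM, TPM rescaled without pancreatic acinar genes, haemoglobin genes and spike-ins, other detection levels and each library alone. Summing C4a with C4b was added after seeing the data.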

Additional observations from a re-analysis of the deposited data

How the results depend on the processing

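Rescaling TPM without haemoglobin genes, 6 pancreatic acinar genes and spike-ins raised every level and kept the order: C1qc stood at 600.5 TPM, C1qb at 393.6, C1qa at 296.8, Cfp at 256.9, C3 at 216.2, C4b at 88.98, Cfb at 32.01, C5ar1 at 6.912 and C3ar1 at 0.5157. The larger values follow from the smaller total. With plain library totals, the log2 ratio of C1qc was 0.03073 (adjusted p = 0.0619, exact binomial test) and that of Cfb -0.02863, and 5 of the 9 genes passed in place of 6. With TPM ratios, C1qc turned to -0.07479, C1qb to -0.1016 and Cfb to -0.1549, and the shift of all detected genes on that scale was -0.125. By share of counts, the leading transcript held 99.81% of C1qc, 98.99% of C4b and 99.67% of Cfp, since short transcripts weigh less in counts. The other 97 alternative values kept their direction and, where tested, their side of the threshold, or stayed within the spread or within 1.5 times. DESeq2 size factors, minimum counts, posterior means and each library alone were among them. TPM ratios had no test and were judged by direction alone, with C3 at 0.021 and Cfp at 0.024. Leaving out the prior count does not change the test. Chain ratios from counts per effective length restate those of TPM, so neither is a check. For levels, chain ratios and transcript shares, each library alone lies within the SD of 2 values by arithmetic, so these values are no check. With each library alone, the ratio of C1qc to C1qa was 1.923 to 2.146, and 31 or 32 of the 53 pathway genes were detected. At a limit of 5 TPM, 23 were.

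The exact binomial test treats counting error as the only error, while the libraries differed by a coefficient of variation of 0.186. C1qa, C1qc, C3, C4b and Cfp, at folds under 1.2, thus passed a test that leaves out the usual spread between these libraries. The log2 ratios of C1qa, C1qc, C3 and Cfp lay under 0.246, the median absolute value of all genes tested. That of C4b, at 0.247, lay at it. The pass of C5ar1, 1.68-fold lower in library 2, leaves that spread out too, and 18.5% of all genes tested differed by more than 1.5-fold. No paired analysis was possible because the series has 1 group of 2 samples. C3ar1, with 80 and 63 counts, is limited by depth.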

Other observations

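For 2 of the 31 complement genes with a mean of 1 TPM or more, the TPM ratio and the count ratio between the libraries parted by more than 0.3 on the log2 scale after the shift of -0.125 was taken off. Neither is one of the 9 genes. C4a had a log2 TPM ratio of -1.41 and a log2 count ratio of -0.48, and the effective length in the authors' tables was 795.1 bases in library 1 and 1387.94 bases in library 2. Itgam, the alpha chain of complement receptor CR3, had -1.22 and -0.40, with effective lengths of 2210.28 and 3604.35 bases. A gene's effective length follows the transcripts to which its reads were assigned, so the TPM of both genes depends on that division.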
